A study of Mus musculus with 43 samples.

Results

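Brain-enriched genes were compared with liver, skeletal muscle and inguinal white adipose tissue (WAT) of the same mouse groups. A table entry was called brain-enriched when its mean FPKM over the 4 brain groups was at least 1 and at least 5 times the highest of the other 3 tissue means. FPKM is a read count scaled to transcript length and library size, so that levels of different genes can be set side by side. Of 42349 entries, 15105 had a mean brain FPKM of at least 1, and 2374 of those (15.7%) were brain-enriched. The same rule named 1121 entries for liver, 689 for skeletal muscle and 638 for WAT. The ratio that chose the genes is given as a description, with no test.

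The samples came from female mice aged 15 months that were wild type (WT, Irs1+/+) or carried a global Irs1 knockout (KO, Irs1-/-). They were fed ad libitum (AL) or kept on dietary restriction (DR) of 30% for 12 months, which gave the groups WT AL, KO AL, WT DR and KO DR in each tissue. Brain was represented by 11 of the 43 libraries, with 2 for WT AL and 3 for each of the other groups, all made from poly-A selected RNA and read on an Ion Proton instrument. The labels did not say which part of the brain was taken. The deposited table gave 1 value and 1 interval of 95% for each group rather than values per mouse, so no spread between mice could be computed here and the depth per library is unknown. Irs1 itself was listed at 2.48 FPKM in WT AL (interval 0.793 to 4.16), 1.62 in WT DR, 3.49 in KO AL and 4.14 in KO DR. Irs1 was thus no lower in the brain of the groups labelled KO than in WT, and these groups are named by their labels throughout.

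Neurons signal by releasing transmitter from synaptic vesicles onto receptors of the next cell, and they carry the signal along axons with voltage-gated ion channels. Oligodendrocytes wrap those axons in myelin, astrocytes clear transmitter and supply the neurons, and microglia are the resident macrophages. Many neuronal genes are kept silent in other tissues by the repressor REST, which binds a bipartite sequence (the neuron-restrictive silencer element, NRSE) with a left element TTCAGCACC and a right element GGACAGCGC. Specialised nuclei of the hypothalamus, midbrain, hindbrain and cerebellum add peptides and transmitters that are made in few cells.

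Promoters are shown for genes whose brain enrichment is described below, taken from RefSeq on GRCm38.p6 from 250 bases before to 50 after the gene start, on the gene's own strand. Capitals mark an NRSE element read in either orientation. Klk6 (kallikrein 6, a secreted protease of oligodendrocytes; chr7:43824294-43824593, + strand) was the only gene with an element among the 6 single-gene entries of largest ratio that had a promoter there (Vwc2l, Gm29514, Klk6, Trpc5, Slc6a5 and Klhl1). Syn1 (synapsin, a vesicle coat protein; chrX:20920869-20921168, - strand) is a textbook REST target. Ptprn2 (a dense-core granule phosphatase; chr12:116485470-116485769, + strand), Unc13a (a vesicle priming factor; chr8:71671708-71672007, - strand) and Psd (an exchange factor for Arf6; chr19:46327107-46327406, - strand) were the brain-enriched genes that held both elements. The last 4 genes were chosen after their values were seen.
Klk6: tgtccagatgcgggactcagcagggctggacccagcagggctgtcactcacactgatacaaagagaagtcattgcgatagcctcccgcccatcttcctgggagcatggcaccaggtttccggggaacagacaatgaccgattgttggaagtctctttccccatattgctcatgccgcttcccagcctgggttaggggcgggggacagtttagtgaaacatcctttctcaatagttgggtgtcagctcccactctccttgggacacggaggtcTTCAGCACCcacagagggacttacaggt
Syn1: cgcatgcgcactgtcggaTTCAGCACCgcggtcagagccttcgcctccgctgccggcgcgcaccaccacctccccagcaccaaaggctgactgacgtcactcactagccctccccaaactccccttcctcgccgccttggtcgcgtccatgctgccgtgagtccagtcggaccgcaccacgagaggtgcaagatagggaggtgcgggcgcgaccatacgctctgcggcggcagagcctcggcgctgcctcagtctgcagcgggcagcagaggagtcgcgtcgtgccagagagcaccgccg
Ptprn2: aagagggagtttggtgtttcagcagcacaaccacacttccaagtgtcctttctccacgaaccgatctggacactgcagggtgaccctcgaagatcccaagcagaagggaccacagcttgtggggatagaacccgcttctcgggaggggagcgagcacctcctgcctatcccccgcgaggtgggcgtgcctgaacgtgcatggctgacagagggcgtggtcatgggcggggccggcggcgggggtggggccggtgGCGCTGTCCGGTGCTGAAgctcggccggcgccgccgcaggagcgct
Unc13a: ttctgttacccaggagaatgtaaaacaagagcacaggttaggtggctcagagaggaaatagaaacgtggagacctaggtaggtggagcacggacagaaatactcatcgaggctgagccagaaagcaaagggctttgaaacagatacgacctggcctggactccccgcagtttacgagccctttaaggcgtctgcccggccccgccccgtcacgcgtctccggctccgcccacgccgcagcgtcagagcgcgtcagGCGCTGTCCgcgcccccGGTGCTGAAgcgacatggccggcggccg
Psd: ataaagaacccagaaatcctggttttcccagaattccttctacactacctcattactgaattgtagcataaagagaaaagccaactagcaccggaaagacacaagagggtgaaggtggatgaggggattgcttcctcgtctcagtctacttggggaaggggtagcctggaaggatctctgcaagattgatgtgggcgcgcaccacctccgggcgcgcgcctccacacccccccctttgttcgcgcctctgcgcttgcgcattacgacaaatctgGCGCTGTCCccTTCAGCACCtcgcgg

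In the Klk6 promoter the left element began 23 bases after the gene start, and in Syn1 it began 232 bases before it (position -232). In Ptprn2 the right and left elements stood next to each other on the opposite strand with 0 bases between them, and in Unc13a, in the same orientation, they were 8 bases apart. In Psd they were 2 bases apart on different strands, unlike the pairs in Ptprn2 and Unc13a. These 5 genes had mean brain levels of 19.9, 86.6, 45.6, 29.0 and 62.7 FPKM in that order, and ratios of 1897, 185, 166, 53.9 and 35.9. Of 32851 promoters in the RefSeq table, searched on both strands, 122 (0.371%) held the left element, 133 (0.405%) the right element, 250 (0.761%) either and 5 (0.0152%) both. Only 1452 of 2300 single-gene brain-enriched entries (63.1%) had a promoter in that table, so a comparison of brain-enriched genes with all promoters is void. Among their 1964 promoters 35 (1.78%) held either element and 3 held both.

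The defining markers went with the label. Snap25, the neuronal SNARE protein of vesicle fusion (GRCm38 chr2:136713453-136782428), was listed at 466 FPKM in WT AL, 507 in WT DR, 449 in KO AL and 612 in KO DR. Its level in the other 12 columns lay between 0.0211 and 3.52 FPKM, and its ratio was 310. Mbp, the main basic protein of myelin, had the highest mean of any brain-enriched gene, with 3877 FPKM in WT AL, 1380 in WT DR, 4391 in KO AL and 3877 in KO DR. Its ratio was 94.6 because skeletal muscle had a mean of 35.8 FPKM. No gene on the lists of liver, skeletal muscle or adipocyte markers was brain-enriched, and neither was any of 20 reference genes used in all cells.

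Among the 2153 brain-enriched entries with a value above 0 elsewhere, the median ratio was 29.9. A ratio of at least 10 was reached by 1596, of at least 50 by 860, of at least 100 by 586 and of at least 1000 by 14. The remaining 221 entries were listed at 0 in all 12 other columns and have no ratio. The next highest tissue was WAT for 1489 entries (69.2%), skeletal muscle for 441 (20.5%) and liver for 223 (10.4%). The lowest brain group lay above the highest of the 12 other columns in 2154 brain-enriched entries (90.7%), a count the rule itself favours, and in 26.9% of all entries at the level limit. Dcaf7, H2afy2 and Usp20 sat just inside the limit with ratios of 5.0003, 5.0022 and 5.0073, and Purb, Ccdc120 and Hcn4 just outside with 4.9987, 4.9977 and 4.9964.

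**Figure D1:**
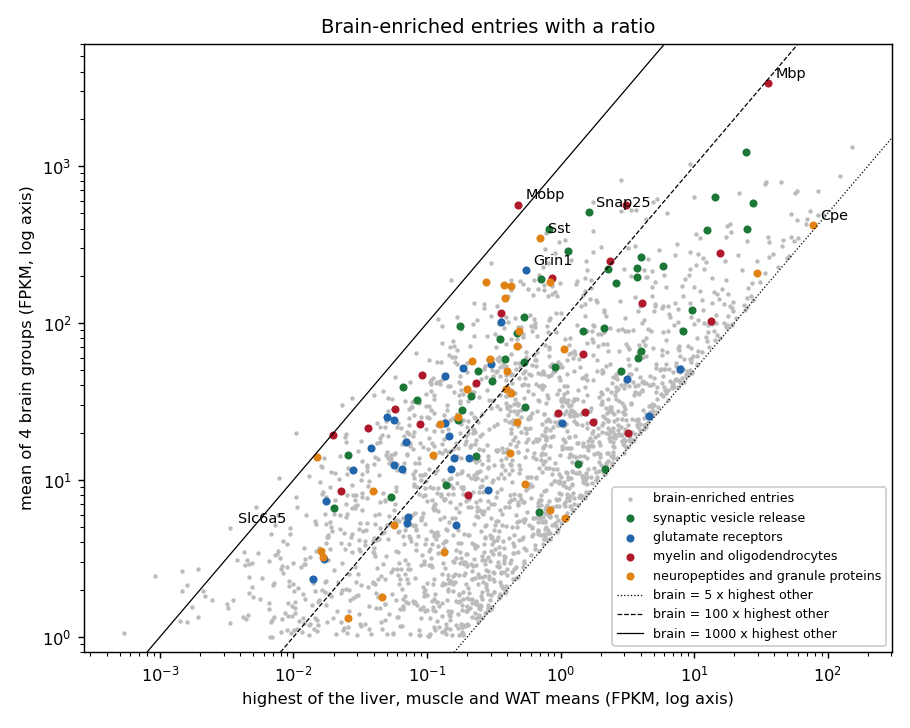
Mean FPKM of brain-enriched entries in brain against the highest mean FPKM of liver, skeletal muscle and WAT, both on log axes. The 2153 brain-enriched entries with a ratio lie to the brain side of the line of ratio 5, with Snap25 at a ratio of 310 and Mbp at 94.6. The 221 entries listed at 0 in all 12 other columns have no ratio and are not drawn.

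The largest ratios belonged to genes with almost no reads outside the brain. Vwc2l, a secreted protein, led with a ratio of 2650 at only 2.44 FPKM in brain, followed by the long RNA Gm29514 (1940), Klk6, the cation channel gene Trpc5 (1809) and the glycine transporter gene Slc6a5 (1470). Such ratios rest on very small values elsewhere (0.0105 FPKM in WAT for Klk6). Genes with both a high level and a high ratio were Mobp, a myelin protein (566 FPKM, ratio 1175), and Nefm, the medium neurofilament (189 FPKM, ratio 1241). With 1 FPKM added to both sides, Mobp led with a ratio of 383, ahead of Cplx1 (complexin, 218), Hpca (hippocalcin, 215), Ndrg4 (214), Ddn (dendrin, 212), Sst (somatostatin, 205) and Snap25 (193).

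After Mbp the entry of highest brain level was Gm6682, at a mean of 1320 FPKM. Dnm1, the dynamin that pinches off vesicles, had a mean of 1233 FPKM, Aldoc, the brain form of aldolase, 1031, Calm3, a calmodulin gene, 871, and Ndrg4 819. The creatine kinase gene Ckb was listed at 790 FPKM, and the sodium pump subunit Atp1b1 at 675. Syp (synaptophysin) had 631 FPKM and Hpca 592. Gm12892 and Gm11223 also ranked among the 15 highest, at 795 and 670 FPKM. The annotation gives Gm6682 and such entries as copies of other genes, so reads may be shared with those genes and their values are uncertain.

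Of 767 symbols on 35 lists, 766 were matched to entries. On the neuronal function lists 368 of 448 genes at the level limit (82.1%) passed the ratio, against 15.7% of all entries, and the lists ran from 12 of 21 (RNA-binding) to 28 of 28 (glutamate receptors). In the lists of cell types other than neurons 45 of 112 (40.2%) passed, and in the lists of brain regions 68 of 101 (67.3%).

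Genes of vesicle release were almost all brain-enriched. Of 48 genes, 45 were brain-enriched, with brain levels between 6.28 and 1233 FPKM and ratios up to 590 (Rab3c, a vesicle GTPase). Cplx1, which clamps the SNARE complex, was listed at 388 FPKM in WT AL, 292 in WT DR, 345 in KO AL and 556 in KO DR. Syp was listed at 531, 398, 871 and 724 FPKM in that order. These spans were 1.90 and 2.19 times from the lowest to the highest group, and their tests of the 4 groups gave an adjusted p of 1.

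Receptors for fast transmission were brain-enriched without exception among genes at the level limit. All 28 glutamate receptor genes passed, with a median ratio of 175, and so did 17 of 17 GABA and glycine receptor genes, with a median ratio of 67.9. Grin1, the obligatory NMDA receptor subunit, was listed at 165 FPKM in WT AL, 202 in WT DR, 246 in KO AL and 254 in KO DR, and its ratio was 395. Gabrb2, a subunit of the GABA-A receptor, was listed at 33.3, 31.9, 29.7 and 29.7 FPKM in the same order, with a ratio of 358. The Grin1 groups spanned 1.54 times and the Gabrb2 groups 1.12 times. Gria2, Gria3, Gria4, Grik4, Grid1, Grm8 and Cacng8 were read from entries that join neighbouring genes, so their values are shared with those genes. On the postsynaptic side 20 of 30 scaffold and plasticity genes passed. Camk2a, the kinase of synaptic plasticity, did not, because skeletal muscle was listed at 147 FPKM against 424 in brain.

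Among genes of transmitter synthesis and transport 20 of 31 passed. Slc17a7 (vesicular glutamate carrier, 279 FPKM, ratio 305), Slc32a1 (vesicular GABA carrier, 134 FPKM, ratio 592) and Gad1 (GABA synthesis, 105 FPKM, ratio 438) were high in all groups. Slc1a2, the astrocyte glutamate carrier, had 111 FPKM in brain and 54.5 in liver, so it missed the limit with a ratio of 2.03. Glul, the glutamine synthetase gene, had a higher mean in WAT than in brain and shares its entry with another gene.

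Most ion channel genes were brain-enriched. Of 12 sodium channel genes 9 passed, of 42 potassium channel genes 35, and of 31 calcium channel and sensor genes 28. Kcnj6, a potassium channel opened by G proteins, had a ratio of 1333 at 10.3 FPKM, and Scn1a, a sodium channel of interneurons, a ratio of 371 at 19.0 FPKM. Calcium sensors reached higher levels, with Hpca at 592 FPKM and Vsnl1 at 226. Pvalb, the calcium buffer of fast interneurons and of fast muscle, was listed at 59.2 FPKM in brain but 5003 FPKM in skeletal muscle, which gave a ratio of 0.0118.

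The neuronal cytoskeleton was brain-enriched in 28 of 36 genes. Tubb3, the neuronal beta tubulin, had 386 FPKM and a ratio of 221, and Kif5a, the neuronal kinesin heavy chain, 337 FPKM and a ratio of 310. Mapt (tau) fell just short, with 114 FPKM in brain, 23.0 in skeletal muscle and a ratio of 4.96. Of 45 adhesion and guidance genes 38 passed, led by Slitrk1 (ratio 651), which organises synapses. Of 21 neuronal RNA-binding genes 12 passed. Elavl4 (HuD) had a ratio of 408, while Rbfox1, a splicing regulator shared by brain and muscle, had 50.02 FPKM in brain and 63.6 in skeletal muscle.

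Transcription factors of neurons passed in 19 of 32 cases. Scrt1, a neuronal zinc finger repressor, had 106 FPKM and a ratio of 876, and Neurod6, a factor of cortical excitatory neurons, 18.9 FPKM and a ratio of 771. Of 34 neuropeptide and granule genes 33 were brain-enriched. Sst was listed at 396 FPKM in WT AL, 365 in WT DR, 311 in KO AL and 322 in KO DR, a span of 1.27 times. G protein signalling genes of neurons passed in 37 of 42 cases, and Htr2c, a serotonin receptor, had the largest ratio there (1291).

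**Figure D2:**
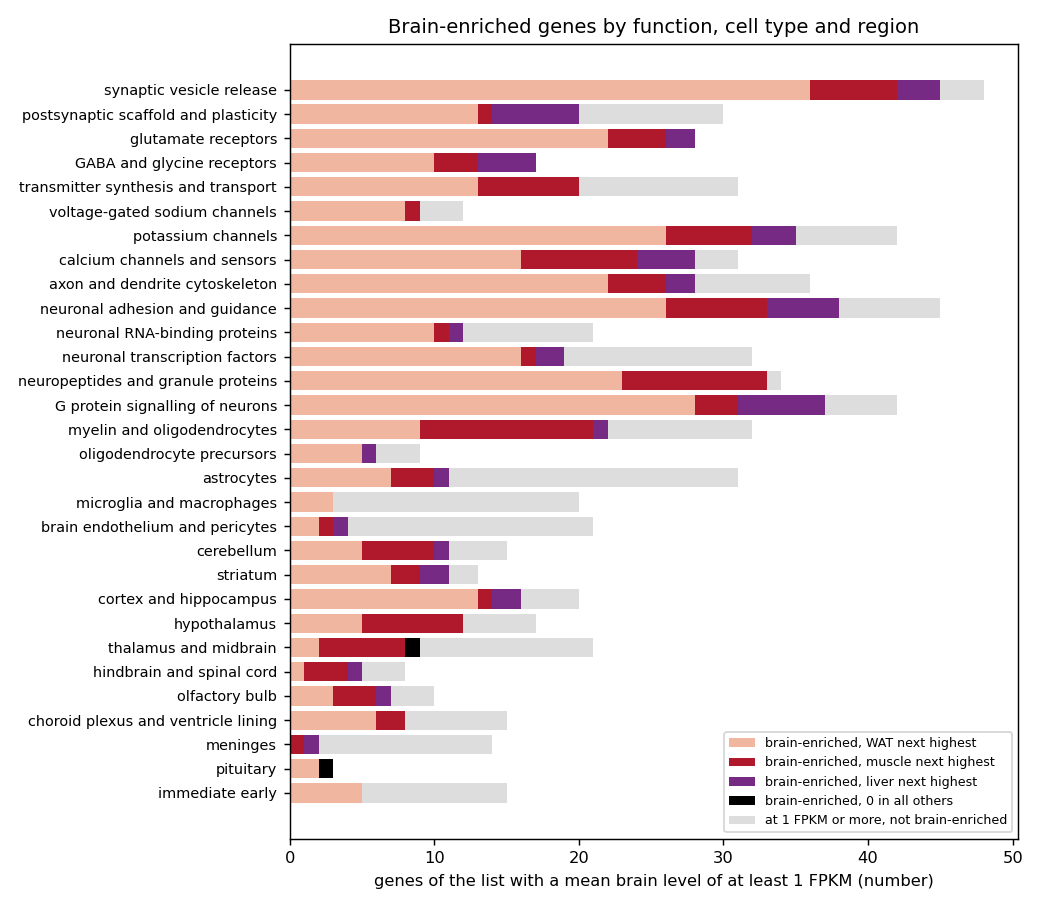
For each list, the number of its genes at the level limit as a stacked bar. Brain-enriched genes are coloured by the next highest tissue, and genes that were not brain-enriched are grey. Nearly all genes of glutamate receptors (28 of 28) and vesicle release (45 of 48) were brain-enriched, but few of microglia (3 of 20) and endothelium (4 of 21). The liver, skeletal muscle and adipocyte lists are not drawn.

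Glial genes are given by cell type. Myelin and oligodendrocyte genes passed in 22 of 32 cases, among them Mog (47.0 FPKM, ratio 512) and Mag (194 FPKM, ratio 225). Precursor genes of oligodendrocytes passed in 6 of 9 cases. Only 11 of 31 astrocyte genes did, led by Slc6a11, a GABA transporter (ratio 778), and Gfap, the astrocyte filament (149 FPKM, ratio 366). Apoe, which astrocytes make in quantity, had 1892 FPKM in brain, and its ratio was 0.0484 because the level in liver was higher still. Of 20 microglia and macrophage genes 3 passed, namely Cx3cr1 (ratio 18.7), P2ry12 (11.2) and Siglech (7.14). C1qa and Csf1r, which all macrophages carry, had ratios of 0.437 and 0.665. Brain endothelium passed in 4 of 21 genes, among them the blood-brain barrier carriers Slco1c1 (ratio 195) and Slc2a1 (9.90).

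Many of the brain-enriched genes have a close relative that serves other tissues, and 24 such pairs were compared. The brain form was brain-enriched in 20 pairs and the other form in 2 (Stmn1 and Slc2a1), and the brain form had the larger ratio in 23. Snap25 had a ratio of 310 and Snap23 0.143. Eno2 (neuronal enolase) had 106 and Eno1 0.608. Aldoc had 110 and Aldoa, the muscle aldolase, 0.062. Kif5a had 310 and Kif5b 1.70, and Elavl4 408 against 1.33 for Elavl1. The exception was the glucose carrier pair, where neuronal Slc2a3 had a ratio of 9.16 and Slc2a1 one of 9.90. Brain forms below the limit included Ptbp2 (2.13), Camk2a (2.90) and Atp6v0a1 (3.05).

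Choosing genes on 3 groups and reading the group left out showed how well brain enrichment carried over. Of 2382 entries chosen without WT AL, 1931 (81.1%) had a ratio of at least 5 within WT AL. The figure was 2036 of 2347 (86.7%) for WT DR, 2015 of 2351 (85.7%) for KO AL and 2020 of 2336 (86.5%) for KO DR. In each of the 4 groups alone the ratio held in 1712 of the 2374 entries (72.1%). Brain-enriched entries made up 19.2% of the summed brain FPKM in WT AL, 13.1% in WT DR, 14.5% in KO AL and 19.5% in KO DR.

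Constancy over the 4 brain groups was then examined gene by gene with a joint Wald test on log2 FPKM (3 degrees of freedom), which took each group's SD from the deposited interval. P-values were adjusted by Benjamini-Hochberg over all 15655 tested entries, and an FDR of 10% was the threshold. The test needs a value above 0 in every brain group, which 2182 of the 2374 entries had. Of these, 44 (2.02%) changed between groups, of which 4 were small nucleolar RNAs, against 1.03% of all tested entries. Without WT DR the count was 16 (0.732%, against 0.374% of all tested entries) and without KO DR 20 (0.914%, against 0.465%). The ratio of the highest to the lowest group had a median of 1.76 among brain-enriched entries (5th to 95th percentile 1.22 to 4.38) and 1.74 among all tested entries. It was under 2 in 64.8% of brain-enriched and 66.2% of all entries, and over 5 in 85 brain-enriched entries (3.90%) against 4.62% of all. A span that missed the test does not show that the groups were equal, since the median standard error of a log2 difference among brain-enriched entries was between 0.53 and 0.81 in the 4 contrasts.

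The most constant genes at 10 FPKM or more were E330009J07Rik, with 1.07 times between the lowest and highest group, Nap1l2, a neuronal nucleosome assembly protein (1.08), Lin7b, a synaptic scaffold (1.09), Tspan5, Akap11 and Napb, which recycles SNARE complexes (1.10). Nap1l2 was listed at 44.3 FPKM in WT AL, 47.6 in WT DR, 45.6 in KO AL and 46.9 in KO DR. Synj1, the phosphatase that uncoats vesicles, had 61.9, 55.8, 62.4 and 61.0 FPKM in that order. In both genes each group's value lay inside the intervals of the other groups.

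**Figure D3:**
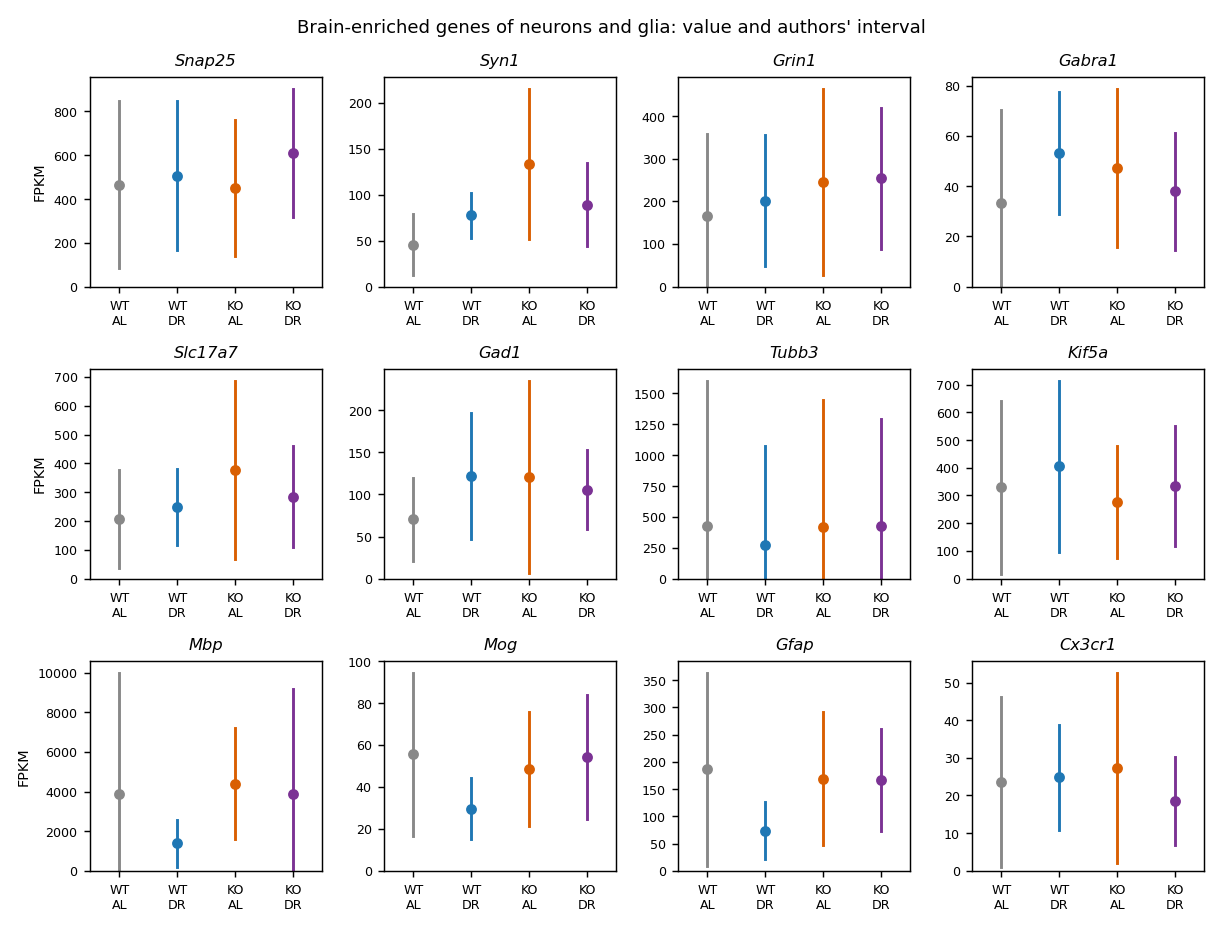
FPKM of 12 brain-enriched genes of neurons and glia in the 4 brain groups, each point a pooled group value and each bar its deposited interval of 95%. The intervals of the 4 groups overlap for each gene, Snap25 spans 1.36 times and Mbp is lowest in WT DR at 1380 FPKM.

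The called genes were counted by list. Of all 368 brain-enriched genes on a function list, 10 (2.72%) were called, against 2.02% of brain-enriched and 1.03% of all tested entries. Of the 328 on no region list, named function genes below, 2 (0.61%) were called, Chgb among them. The others also stood on a region list and are counted there. Of 68 brain-enriched genes on a region list, 13 (19.1%) were called, and their median span was 2.73 times against 1.71 times for the function genes. Genes that met the limits only through a group where they were high had to differ, among them Cbln3, En2 and Chrna6 of the 13. Among genes that stayed brain-enriched with any 1 group left out, 10 of 61 region genes (16.4%) and 2 of 312 function genes (0.641%) were called (chosen after seeing the data). Without WT DR 0 of 328 function genes and 7 of 68 region genes (10.3%) were called, against 0.374% of all tested entries. Without KO DR these counts were 1 of 328 (0.305%) and 6 of 67 (8.96%), against 0.465% of all. The lists were drawn up with earlier results of these data known. No brain-enriched gene of the vesicle release, postsynaptic, glutamate receptor, GABA and glycine receptor, sodium channel, calcium, adhesion, RNA-binding, transcription factor or G protein lists was called. On the calcium list Pvalb, which was not brain-enriched, passed the joint test, with 56.5 FPKM in WT AL, 18.5 in WT DR, 58.0 in KO AL and 104 in KO DR (chi-square adjusted p = 1.2e-05). Which part of the brain each group contained was not recorded in the labels, and in bulk tissue fewer cells of a type and less RNA per cell cannot be told apart.

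**Figure D4:**
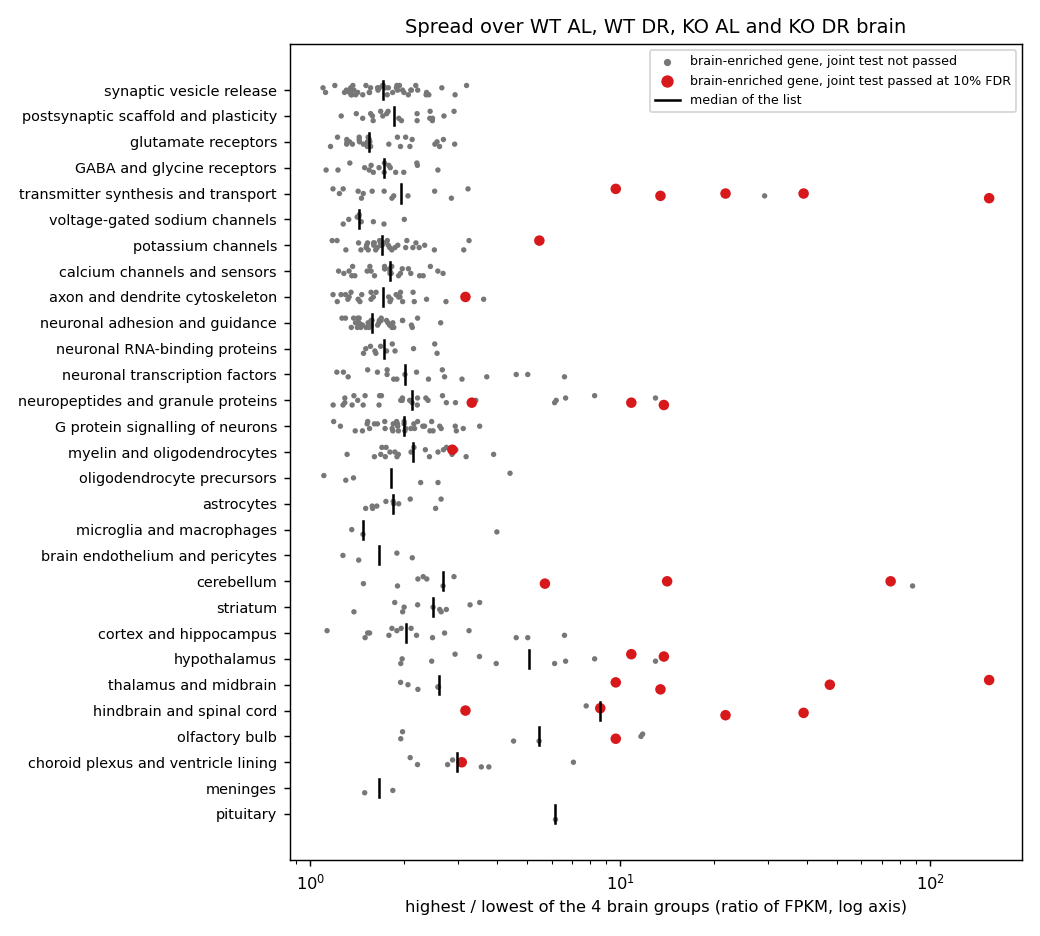
Highest-to-lowest group FPKM (log axis) of each brain-enriched gene, by list, with genes called by the joint test marked. Medians of the function lists run from 1.44 (sodium channels) to 2.13 (neuropeptides and granule proteins). Those of the region lists run from 2.04 (cortex and hippocampus) to 8.62 (hindbrain, 5 genes). Striatum has 2.49, thalamus and midbrain 2.59, cerebellum 2.68, hypothalamus 5.06 and olfactory bulb 5.47.

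Dopamine genes of the midbrain held the largest span among the called genes, 155 times. Slc6a3, the dopamine transporter (chr13:73536747-73578672), was listed at 16.1 FPKM in WT AL (interval 3.61 to 28.7), 0.104 in WT DR (0 to 0.231), 0.312 in KO AL (0 to 0.676) and 7.34 in KO DR (3.81 to 10.9). The intervals of WT AL and KO DR did not overlap those of WT DR and KO AL (joint chi-square test, adjusted p = 3.2e-13). Th, which makes the dopamine precursor, was listed at 20.6, 2.13, 6.39 and 12.1 FPKM in the same order (chi-square adjusted p = 0.0051). Slc18a2, the vesicular monoamine carrier, had 8.42, 0.625, 0.763 and 3.62 FPKM (chi-square adjusted p = 0.00053). Chrna6, a nicotinic receptor subunit of dopamine neurons that was listed at 0 in all other tissues, had 4.66, 0.0983, 0.264 and 1.70 FPKM (chi-square adjusted p = 0.00016). It met the level limit through WT AL, and without that group its mean was 0.689 FPKM. All of these were high in WT AL and KO DR and low in WT DR and KO AL. Ddc, the decarboxylase that completes dopamine and serotonin synthesis, is not brain-enriched because of its level in liver (35.4 FPKM), and its brain values of 40.9, 6.93, 8.44 and 30.3 FPKM had the same order (chi-square adjusted p = 0.013).

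Serotonin and glycine genes of the hindbrain had that order too. Slc6a4, the serotonin transporter, was listed at 8.70 FPKM in WT AL, 0.278 in WT DR, 0.559 in KO AL and 10.9 in KO DR (joint chi-square test, adjusted p = 0.0074). Slc6a5, the neuronal glycine transporter (chr7:49910146-49963856), was listed at 8.49, 0.457, 0.854 and 9.99 FPKM (chi-square adjusted p = 2.4e-07). Tph2, which makes serotonin in neurons, had 10.2, 0.449, 0.706 and 6.86 FPKM (chi-square adjusted p = 0.0085), and its ratio of 4.62 was just below the limit. Glra1, a glycine receptor subunit, had 9.19, 1.07, 2.38 and 8.59 FPKM (chi-square adjusted p = 0.039). Rln3, relaxin-3 of the nucleus incertus, had 11.9, 0.114, 0.199 and 6.73 FPKM (chi-square adjusted p = 0.042). In both Slc6a4 and Rln3 the intervals of WT AL, WT DR and KO AL began at 0. Nefh, the heavy neurofilament of large axons, ranged only from 28.4 FPKM in WT DR to 89.9 in KO DR (chi-square adjusted p = 0.051), with 56.4 in WT AL and 48.3 in KO AL. WT AL and KO DR both lay above the other groups in 19 of the 40 called genes that were not small RNAs (47.5%), in 26.5% of brain-enriched entries and in 23.8% of all tested entries.

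The called cerebellar genes were highest in KO DR. Cbln1, a granule cell synapse organiser, was listed at 18.03 FPKM in WT AL (interval 5.36 to 30.7), 11.0 in WT DR (5.91 to 16.1), 18.1 in KO AL (5.71 to 30.5) and 62.8 in KO DR (39.3 to 86.3), with no overlap of KO DR and the rest (joint chi-square test, adjusted p = 1.0e-05). Cbln3, its partner in granule cells, had 0.464, 0.276, 0.553 and 20.6 FPKM (chi-square adjusted p = 2.6e-07), and En2, a factor of the cerebellum and midbrain, 1.07, 0.350, 0.327 and 4.62 FPKM (chi-square adjusted p = 7.0e-06). Cbln3 and En2 met the ratio limit through KO DR, and without that group their ratios were 0.847 and 1.99. Pcp2 of Purkinje cells had 2.61, 0.239, 0.471 and 20.97 FPKM but did not pass (chi-square adjusted p = 0.95). Of 11 brain-enriched cerebellar genes these 3 (Cbln1, Cbln3 and En2) were called, and Cbln1 was the one that stayed brain-enriched without KO DR.

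Among hypothalamic hormones, the groups under DR had the higher values of oxytocin and vasopressin. Oxt (oxytocin; chr2:130576173-130577054) was listed at 2.01 FPKM in WT AL (interval 0 to 5.71), 27.7 in WT DR (13.1 to 42.4), 2.06 in KO AL (0 to 4.58) and 27.5 in KO DR (9.11 to 45.9), so that both DR groups lay above both AL groups (joint chi-square test, adjusted p = 0.0095). Avp (vasopressin; chr2:130580620-130582554), its neighbour on the chromosome, was listed at 15.2, 34.6, 7.94 and 86.2 FPKM (chi-square adjusted p = 0.045). Hcrt (hypocretin, a wakefulness peptide) had 40.3, 16.8, 3.10 and 30.3 FPKM and Pmch (melanin-concentrating hormone) 93.3, 39.8, 11.3 and 52.2, and neither passed (chi-square adjusted p = 0.16 and 0.73). Of 12 brain-enriched hypothalamic genes Oxt and Avp were the 2 called. Chgb, a granule protein shared by many peptide cells, also changed, with 71.9 FPKM in WT AL, 238 in WT DR, 107 in KO AL and 164 in KO DR (chi-square adjusted p = 0.033).

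**Figure D5:**
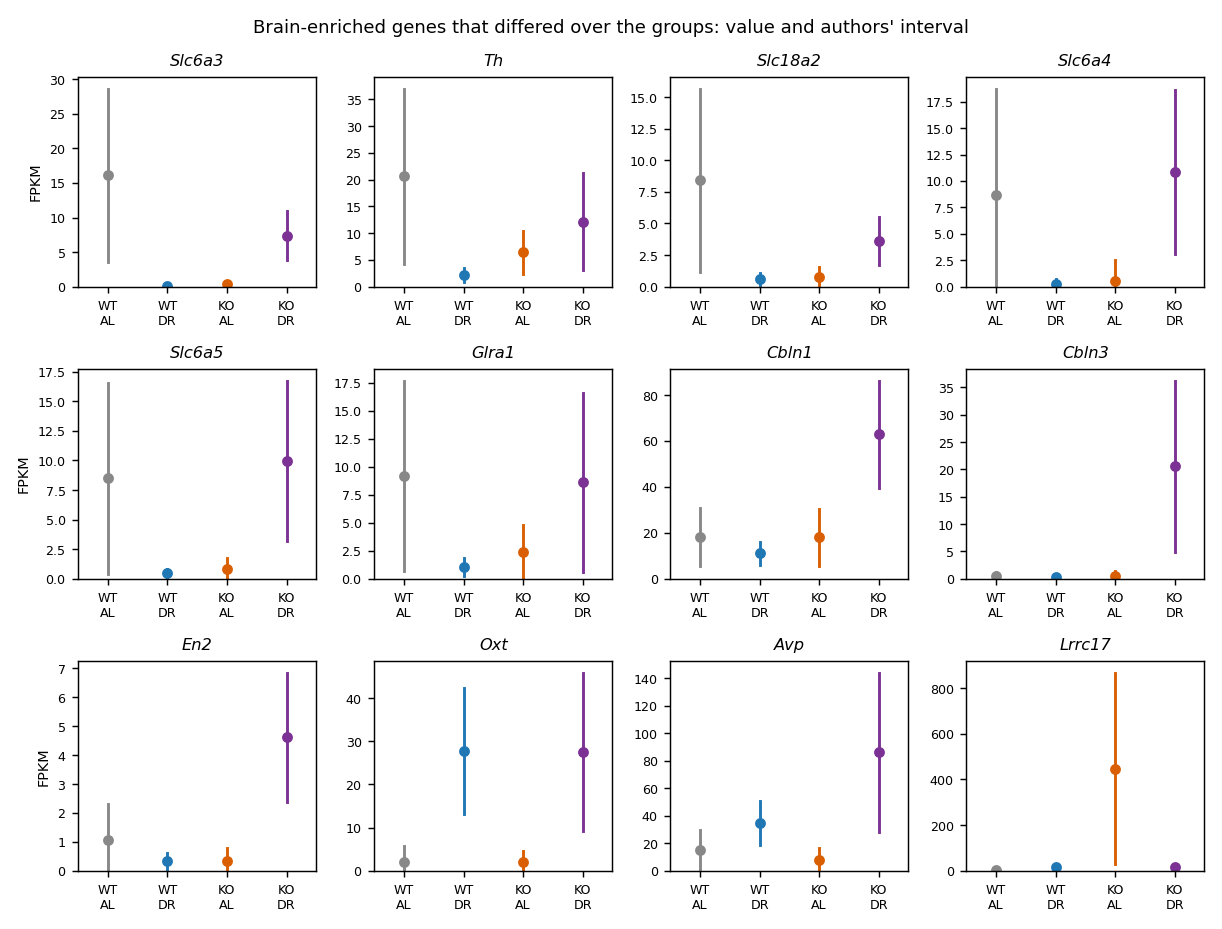
FPKM (linear axes from 0) of 12 brain-enriched genes called by the joint test, in the 4 brain groups, points with deposited intervals of 95%. Slc6a3, Slc6a4 and Slc6a5 are high in WT AL and KO DR, Cbln1 and Cbln3 in KO DR only, Oxt in both DR groups and Lrrc17 in KO AL.

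Other called genes had patterns of their own. Lrrc17, a secreted leucine-rich repeat protein (chr5:21543559-21575904), was listed at 448 FPKM in KO AL (interval 27.6 to 868) against 4.13 in WT AL, 14.5 in WT DR and 15.3 in KO DR (joint chi-square test, adjusted p = 1.1e-10). Its interval in KO AL began above the highest bound of the other groups (23.4), and without KO AL its ratio was 0.95, so it was brain-enriched through that group. Olig2, the oligodendrocyte factor, was listed at 31.6 FPKM in WT AL, 11.0 in WT DR, 23.0 in KO AL and 20.7 in KO DR (chi-square adjusted p = 0.028). Foxj1, the regulator of motile cilia, had 9.24, 5.59, 8.02 and 17.2 FPKM (chi-square adjusted p = 0.0065). Fosb, an activity-induced factor, had 1.56, 2.29, 3.57 and 3.89 FPKM (chi-square adjusted p = 1.8e-10), a narrow range with narrow deposited intervals in WT DR and KO AL. Among the 40 called genes that were not small RNAs the highest group was KO DR in 21, KO AL in 8, WT AL in 8 and WT DR in 3, and the lowest was WT DR in 28.

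On the lists of striatum and of cortex and hippocampus no gene was called. The 11 brain-enriched striatal genes, among them Drd2 and Ppp1r1b, had a median span of 2.49 times and the 16 genes of cortex and hippocampus one of 2.04 times. Fezf2 of deep cortical layers had 3.79 FPKM in WT AL, 14.6 in WT DR, 19.1 in KO AL and 7.97 in KO DR (chi-square adjusted p = 0.16). WT AL and KO DR were its low groups. Of the pituitary hormones, Prl was listed at 11.7, 0.1002, 0.901 and 0 FPKM and Gh at 3.97, 0.0791, 0.189 and 0, so neither could enter the joint test. Both were brain-enriched through WT AL.

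Blood and other tissue markers were read beside these results. The summed FPKM of 9 blood cell genes was 1122 in WT AL, 1096 in WT DR, 10010 in KO AL and 3577 in KO DR, and Hba-a1 alone was listed at 4085 in KO AL (joint chi-square test, adjusted p = 0.0005). The summed choroid plexus and ventricle list had 253, 131, 157 and 434 FPKM in the same order. Skeletal muscle markers summed to 70.2, 46.8, 123 and 126 FPKM, of which Pvalb, which neurons also make, gave 56.5, 18.5, 58.0 and 104, and 3 of 12 tested (Ckm, Myh4 and Pvalb) passed the joint test. Ckm, the muscle creatine kinase, was listed at 0.032, 0.615, 8.46 and 0.470 FPKM, a span of 264 times (chi-square adjusted p = 0.00034). Adipocyte markers summed to 101, 72.6, 80.2 and 114 FPKM, and 0 of 8 passed this chi-square test. Liver markers summed to 571, 288, 230 and 528 FPKM, with 12 of 20 below the level limit and 1 of 13 passing the joint test. Their part in the differences between groups was not tested.

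The 4 contrasts between brain groups were read with the same intervals, and they share groups. KO AL against WT AL asks for the effect of the knockout label under ad libitum feeding. Of 2198 brain-enriched entries tested, 10 were higher in KO AL (0.455%, against 0.17% of all) and 4 lower (0.182%, against 0.0328%). Small RNAs made up 8 of the 10 and 2 of the 4. Among the others, Lrrc17 was higher by 6.76 ± 0.88 on the log2 scale (SE from the deposited intervals, Wald chi-square test, Benjamini-Hochberg adjusted p = 2.9e-11). Slc6a3 was lower (log2 difference -5.69 ± 1.01, Wald chi-square adjusted p = 1.5e-05), and so was Chrna6 (-4.14 ± 1.11, Wald chi-square adjusted p = 0.091). The Chrna6 call was lost with no filter on low FPKM (Wald chi-square adjusted p = 0.116) and without small RNAs (adjusted p = 0.165). Lrrc17 was brain-enriched through KO AL and Chrna6 through WT AL, so the choice of genes favours these directions.

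WT DR against WT AL gives the response to restriction in WT. Of 2174 brain-enriched entries 3 were higher (0.138%, against 0.0989% of all) and 8 lower (0.368%, against 0.125%). All 3 higher entries were small nucleolar RNAs. Slc6a3 (-7.28 ± 1.04), Chrna6 (-5.57 ± 1.11), Slc6a4 (-4.97 ± 1.34), Slc6a5 (-4.21 ± 0.89), Slc18a2 (-3.75 ± 0.82), Th and C1ql2 (-2.61 ± 0.60) were lower in WT DR, with the small RNA Rnu6. C1ql2, a secreted synaptic protein of dentate granule cells that is on none of the lists, had 17.8 FPKM in WT AL and 2.91 in WT DR, and it also passed the joint test (chi-square adjusted p = 3.4e-05). Oxt was 3.79 ± 1.39 higher, which did not pass (Wald chi-square adjusted p = 0.99).

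KO DR against WT DR compares the genotype labels under restriction. Of 2182 brain-enriched entries 53 were higher in KO DR (2.43%, against 0.989% of all) and 2 lower (0.0917%, against 0.17%). The median log2 difference was 0.31 for brain-enriched and 0.23 for all tested entries, and after subtracting the latter 25 were higher and 6 lower. In KO AL against WT AL the median of all entries was 0.13, and in the other contrasts it was within 0.1 of 0. Cbln3 (6.22 ± 1.22), Slc6a3 (6.14 ± 0.94), Slc6a4 (5.29 ± 1.17) and Slc6a5 (4.45 ± 0.75) were highest by difference. Cbln1 was 2.51 ± 0.43 higher (Wald chi-square adjusted p = 3.4e-06). Of the genes tested on each list, 5 of 11 hindbrain, 6 of 21 thalamus and midbrain, 4 of 16 cerebellar, 4 of 32 myelin and 0 of 17 hypothalamic genes were higher. Called genes of myelinating cells included Mag, an adhesion protein of myelin, at 82.2 FPKM in WT DR and 242 in KO DR (1.56 ± 0.45, Wald chi-square adjusted p = 0.058). Olig1 was listed at 68.3 and 176 FPKM (1.37 ± 0.38, Wald chi-square adjusted p = 0.041). Both calls are given without the median of all entries subtracted.

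KO DR against KO AL gives the response to restriction under the knockout label. Of 2202 brain-enriched entries 12 were higher in KO DR (0.545%, against 0.143% of all) and 13 lower (0.590%, against 0.222%), of which 5 and 9 were small RNAs. Cbln3 (5.22 ± 1.17), Slc6a3 (4.56 ± 0.91), En2 (3.82 ± 1.065), Oxt (3.74 ± 1.01, Wald chi-square adjusted p = 0.06), Slc6a5 (3.55 ± 0.88) and Avp (3.44 ± 0.89, adjusted p = 0.04) were higher. Cbln3 and En2 were brain-enriched through KO DR. Lrrc17 (-4.87 ± 0.78) and Gpr37l1, a receptor of glia (-1.62 ± 0.43), were lower. The difference of the restriction contrast between the genotype labels was itself tested, and 18 of 2182 brain-enriched entries passed, against 0.396% of all 15655. At an unadjusted p below 0.05 the 4 contrasts held 85 (3.87%), 97 (4.46%), 240 (11.0%) and 103 (4.68%) brain-enriched entries in the order given, against 1.81%, 2.22%, 7.50% and 2.51% of all tested entries.

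Beyond protein-coding genes, which made up 1840 of the 2374 entries (16% of coding genes at the level limit), brain-enriched entries included 46 of 113 lincRNAs (40.7%), 49 of 129 antisense RNAs (38.0%) and 141 of 199 small nucleolar RNAs (70.9%). Processed pseudogenes contributed 23 of 1442 (1.6%). Of the small nucleolar RNAs, 130 lay in 1 array at chr7:59349536-59894713, and all of them were listed at 0 in liver, skeletal muscle and WAT. In the array 105 copies were at 0 in WT AL, 53 in WT DR, 40 in KO AL and 100 in KO DR, so that only 4 copies were above 0 in all groups. The 15 WT AL copies of 1 length and above 0 took few values, 8 of them exactly 23.7 FPKM, and 11 were whole multiples of that value within 0.01. In the other groups 25 of 59 (WT DR), 16 of 64 (KO AL) and 7 of 18 (KO DR) were whole multiples of that group's commonest value. The deposited SD of the array was nevertheless a median of 5.57% to 8.18% of the value. The copies are nearly identical and short, and small nucleolar RNAs lack a poly-A tail, so their levels and the calls on them are uncertain.

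The 10 protein-coding genes listed at 0 in all other tissues were of low level in brain, between 1.05 and 3.47 FPKM. They were Chrna6, Fgf22 (a presynaptic organiser), Gjd2 (connexin-36 of electrical synapses, 3.47 FPKM), Gm9767, Gpr139, Oprm1 (the mu opioid receptor, 2.61 FPKM), Prl, Ripply2, Vax1 and Zic5. A value listed at 0 does not exclude expression below the detection limit of these libraries.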

How the data were processed

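Poly-A RNA of 4 tissues was sequenced on an Ion Proton. Per the labels and the study's methods, the authors trimmed reads (cutadapt 1.5), aligned them to GRCm38 and ran Cuffdiff 2.2.1. They deposited FPKM values, 1 per group and entry, with an interval of 95% that equals the FPKM ± 2 SD, and a status. The table also holds entries that join several genes (873 of 42349). No values of single libraries were used, and their depth is unknown. Per the study's methods, brain RNA came from 2 (WT AL) or 3 mice per group and Cuffdiff estimated the spread of replicates in each condition, so p-values here rest on that estimate.

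Group means were averaged per tissue with equal weight. Brain entries with at least 1 FPKM in a group and above 0 in the groups compared were tested: each SD was (upper bound - FPKM) / 2, carried to the log2 scale, with a joint Wald chi-square test (3 df), Wald tests of 4 contrasts and of the difference between the diet contrasts, each adjusted by Benjamini-Hochberg over all tested entries at an FDR of 10%. Python 3.11.15, numpy 2.4.6, pandas 2.3.3, scipy 1.17.1 and matplotlib 3.10.9 were used, and the test was checked on simulated data. With no counts, no count test was run, and no pseudocount was added.

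The genes, lists and members were chosen with earlier results of these data known. Genes named are Snap25 and Mbp, the 15 largest ratios and the 15 highest levels, the entries next to the limit, the highest members and lowest ratios of each function list, the most and least constant members (10 each), up to 5 called per contrast and direction, 24 paralog pairs and the marker lists. Ddn, Ptprn2, Cabp7, Dmp1, C130021I20Rik and most of the coding genes listed at 0 elsewhere fall outside this rule and were chosen after their values were seen. Promoters and gene coordinates are from RefSeq (GRCm38.p6) and the GENCODE annotation on GRCm38. Alternatives tried were other ratio, level and FDR limits, pseudocounts, another SE, centring, and leaving out joined entries, small RNAs (added after seeing the data) or each group. Some genes are not reported here.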

Additional observations from a re-analysis of the deposited data

Results flagged for a closer look

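In 15 brain-enriched genes other than small RNAs the contrast of DR with AL differed between the groups labelled KO and WT, by a Wald test of the difference itself with Benjamini-Hochberg adjustment over 15655 entries. The difference is the log2 change from KO AL to KO DR less that from WT AL to WT DR. Of these, 14 are given, and in 12 of them it was positive. It was 11.83 ± 1.38 (SE) in Slc6a3, 11.78 ± 2.73 in Rln3, 8.26 ± 1.53 in Chrna6, 7.76 ± 1.25 in Slc6a5, 7.64 ± 2.09 in C130021I20Rik (an antisense RNA) and 5.999 ± 1.16 in Slc18a2. It was 5.44 ± 1.47 in En2, 4.96 ± 1.31 in Glra1 and 4.19 ± 1.02 in Th. Smaller differences were 3.49 ± 0.79 in C1ql2, 3.12 ± 0.75 in Dmp1 and 2.82 ± 0.77 in Cabp7. In all 12 the contrast was negative in WT and positive in KO. For Slc6a3 it was -7.28 in WT and 4.56 in KO.

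The difference was negative in Lrrc17 (-6.68 ± 1.01), with a WT contrast of 1.81 and a KO contrast of -4.87, and in Fezf2 (-3.20 ± 0.85), with 1.94 in WT and -1.26 in KO. Chrna6 was brain-enriched through WT AL, En2 through KO DR and Lrrc17 through KO AL. The choice of genes thus favours the sign of the difference in these genes. Each value rests on 1 pooled number per group, so no count of mice that share its direction can be given. What part of the brain each library held was not tested.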

How the results depend on the processing

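No paired analysis was possible because the table holds 1 pooled value per group and no library columns, and for the same reason no single mouse could be left out. Of 70 alternatives for the counts, 56 stayed within 1.5 times. The count of brain-enriched genes (2374) became 4128 with no level limit and 1542 with 1 FPKM added. The 44 calls of the joint test became 499 with the SD divided by the root of the number of libraries, 16 without WT DR (14 of them among the 44) and 20 without KO DR (18 among the 44). With that smaller SE the 4 contrasts gave 70 in place of 14 (KO AL against WT AL), 81 in place of 11 (WT DR against WT AL), 529 in place of 55 (KO DR against WT DR) and 160 in place of 25 (KO DR against KO AL). Leaving out small RNAs gave 3, 6 and 9 calls in KO AL against WT AL, WT DR against WT AL and KO DR against KO AL. KO DR against WT DR gave 32 calls at an FDR of 5% and 31 when centred on the median (25 higher and 6 lower). The 112 results for single genes kept their direction and call in 995 of 1156 alternatives, lost the call in 152, moved in 9 and reversed in 0. Under the smaller SE 45 of 68 region genes and 70 of 328 function genes (21.3%) passed the joint test, against 16% of all tested entries. Why the counts moved was not tested.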

Other observations

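Immediate early genes, which neurons switch on within minutes of activity, were partly brain-enriched. Of 15 measured, 5 passed the ratio, namely Egr4 (17.4 FPKM, ratio 698), Egr3 (44.6 FPKM, ratio 82.2), Arc (48.1 FPKM, ratio 70.5), Npas4 (3.68 FPKM, ratio 27.3) and Fosb (2.83 FPKM, ratio 14.3). Fos (ratio 2.88), Egr1 (3.38) and Junb (1.12) did not, since the other tissues carried them too. Npas4 was listed at 1.09 FPKM in WT AL, 5.67 in WT DR, 4.86 in KO AL and 3.08 in KO DR, and Arc at 24.6, 50.6, 66.3 and 51.1 FPKM. WT AL was the lowest group in both, and neither passed the joint chi-square test (Benjamini-Hochberg adjusted p = 0.52 and 1).

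Slc18a3, the vesicular acetylcholine carrier, was brain-enriched at 7.76 FPKM with a ratio of 237, and Chat, which makes acetylcholine, at 1.96 FPKM with a ratio of 193. Slc18a3 was listed at 3.81 FPKM in WT AL, 3.90 in WT DR, 11.1 in KO AL and 12.3 in KO DR (chi-square adjusted p = 0.75). Peptides of other interneurons were also measured. Vip was listed at 2.57, 15.96, 9.99 and 5.65 FPKM (chi-square adjusted p = 0.12) and Npy at 21.3, 62.5, 42.5 and 24.9 FPKM (adjusted p = 0.70). Both were lowest in WT AL and highest in WT DR.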
